A study of Drosophila melanogaster with 3 samples.

Results

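The cell cycle and replication genes were 51 genes chosen by symbol from the Ensembl annotation of Drosophila melanogaster, out of 13968 protein-coding genes. All 51 symbols were found. They fall into 7 roles: 8 cyclins and cyclin-dependent kinases of the cell cycle, 5 regulators of those kinases, 4 genes of the E2F and Rb module, 15 replication genes, 10 spindle and kinetochore genes, 6 cyclins and kinases of transcription, and 3 genes of the PNG kinase complex. The rule that names them uses no measured value. The study mapped where the protein of CG12219 sits on the genome. Immunoprecipitated chromatin was sequenced (ChIP-seq) from 1 group of embryos of both sexes, aged 0 to 18 h, from a transgenic line that stably carries CG12219 fused at its C-terminus to green fluorescent protein. There were 3 biological replicates and no second condition, and an immunoprecipitation without the tag was not used here. One label calls the samples input controls, while the antibody, assay and peak list entries describe immunoprecipitations, and they were treated as such. The embryos were used whole, so the calls come from all cell types and ages mixed, and a site in few cells cannot be told apart from a weak site in many.

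Cyclins activate cyclin-dependent kinases (Cdks), and the rise and fall of these pairs drives entry into DNA replication and into mitosis. E2F factors with their partner Dp turn on replication genes, and Rb proteins hold them back until cyclin-kinase pairs release them. In the fly embryo the first cycles run without gaps on maternal products, under the PNG kinase, and later cycles gain gap phases set by stg and dap.

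A list of 4187 peaks was deposited that passed a filter on the irreproducible discovery rate (IDR). It equals the 4187 highest-signal calls of a list made on the pooled replicates. The pooled list and each replicate's list hold 30000 calls, peaks together with background, so a low rank in them is not by itself a binding site. Calls were ranked within their list by the deposited signal, with rank 1 the highest. The depth of the libraries is unknown. A gene was counted as called when the summit of an IDR peak lay within 500 bp of any of its transcription start sites (TSS). Distances below are given along the gene's strand, with negative values upstream.

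The IDR peak was at a TSS in 10 of the 51 genes (19.6%), against 14.3% of all protein-coding genes. The 10 were the cyclin genes CycB3, CycE and CycT, the kinase gene Cdk1, the anaphase-promoting complex activator fzr, the E2F partner Dp, the helicase genes Mcm2 and dpa, the ribonucleotide reductase gene RnrS, and plu of the PNG kinase complex. None of the 10 spindle and kinetochore genes was among them, and counts in single roles are too small to set against the background. Their best ranks ran between 530 at Dp and 3102 at CycB3, with a median of 1848, against a median of 1853 over all protein-coding genes called at a TSS. Among the 2093 highest-signal IDR peaks stood those of 7 of the 10, against 54.9% of all protein-coding genes called at a TSS. Share and ranks of the 51 genes thus stood near those of protein-coding genes at large.

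**Figure D1:**
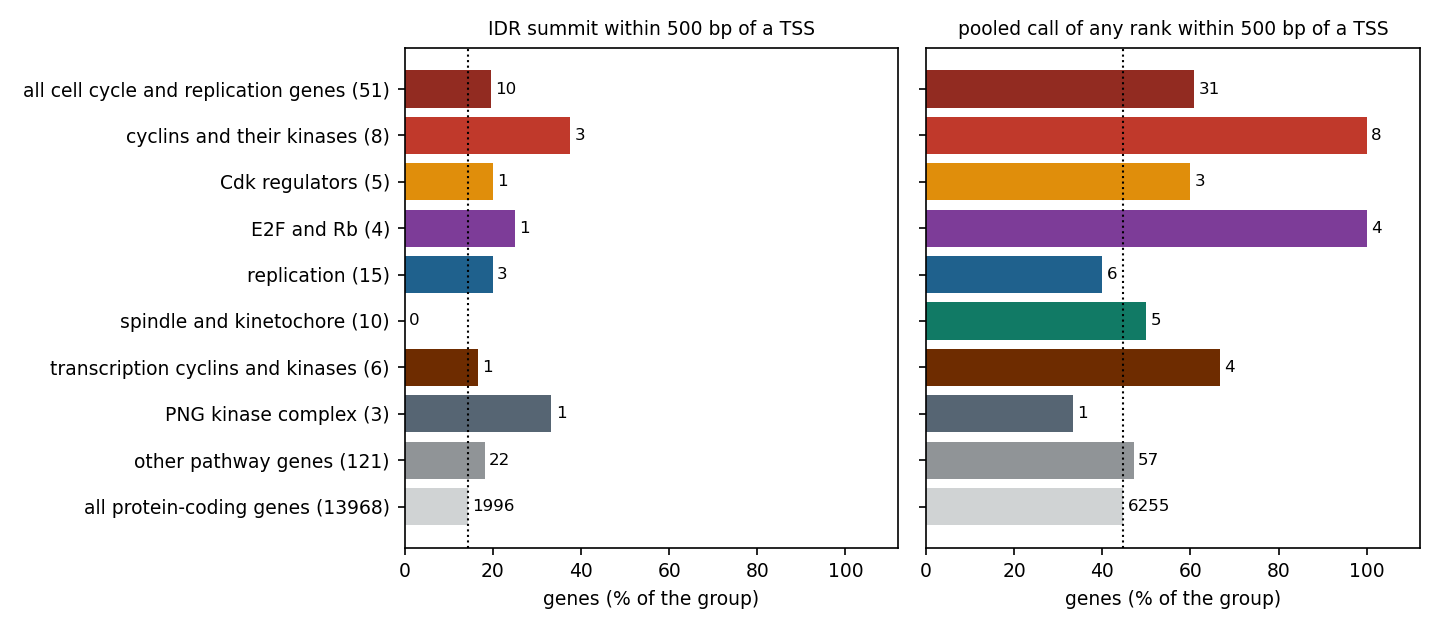
Share of genes in each group (x axis, %) with an IDR summit (left) or a pooled call of any rank (right) within 500 bp of a TSS, with the number of genes called printed at each bar, the group size in brackets and a dotted line at all protein-coding genes. Of the 10 spindle and kinetochore genes, 0 had an IDR summit at a TSS, and all 8 cyclins and kinases and all 4 E2F and Rb genes had a pooled call.

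The sequence around the summit is shown for 4 called genes, those outside transcript leaders and tails on the arms used for sequence, as the bases within 50 bp of the summit in the RefSeq genome (dm6), 5′ to 3′ on the gene's strand. They show what sequence lies under the summit at a called TSS, in 3 windows of 66.3% to 75.2% A+T and, in CycB3, 1 of 42.6%. Capitals mark runs of at least 10 bases that are all A or T, and in CycB3 the word GGTCACAC, the core of the M1BP motif.
CycE (chr2L:15746963-15747063, minus strand): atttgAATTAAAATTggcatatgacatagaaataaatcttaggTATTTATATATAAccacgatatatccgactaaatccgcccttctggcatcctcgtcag
Mcm2 (chr3R:8264683-8264783, plus strand): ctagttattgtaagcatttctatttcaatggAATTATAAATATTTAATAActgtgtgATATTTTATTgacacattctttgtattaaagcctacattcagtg
Cdk1 (chr2L:10386396-10386496, minus strand): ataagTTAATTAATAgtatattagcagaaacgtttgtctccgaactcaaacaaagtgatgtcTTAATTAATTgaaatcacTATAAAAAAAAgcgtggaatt
CycB3 (chr3R:24870825-24870925, minus strand): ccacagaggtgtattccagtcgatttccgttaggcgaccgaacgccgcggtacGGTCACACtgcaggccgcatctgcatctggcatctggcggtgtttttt
The Cdk1, Mcm2 and CycE windows each hold more than one capital run, with A+T contents of 73.3%, 75.2% and 66.3%. The CycB3 window has no such run and an A+T content of 42.6%. Of the windows not shown, that of fzr held 72.3% and that of CycT 52.5% A+T.

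Over the 13 distinct IDR summits at a TSS of the 51 genes, the median A+T content was 66.3%, against a median of 65.3% (quartiles 56.4% and 71.3%) over all 1813 IDR summits at a TSS. A run of at least 10 A or T bases within 50 bp of the summit was present at 5 of the 13 (38.5%), against 46.1% of all IDR summits at a TSS and 23.8% of windows centred on protein-coding TSS.

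Among the cyclins and kinases of the cell cycle, 3 of 8 were called at a TSS, against 14.3% of protein-coding genes. All 8 had at least a pooled call there, against 44.8%. CycE, the cyclin of entry into replication, had its IDR peak (2L, 15746818 to 15747207) at rank 1727, and the same call ranked 3900, 1574 and 2574 in replicates 1, 2 and 3. All 3 replicates held it among their 4187 highest calls. The summit lay at -403 bp from the second of the gene's 3 start sites and within an intron of the longer transcripts. Cdk1, the kinase of entry into mitosis, had a peak (2L, 10386251 to 10386640) at rank 2820, with ranks of 5453, 2118 and 2705, so replicate 1 was beyond its top 4187. It lies between the divergent starts of Cdk1, at -184 bp, and of mRpS7, a mitochondrial ribosomal protein gene, at -216 bp. The peak cannot be assigned to either gene. CycB3, a mitotic B-type cyclin, had a peak (3R, 24870680 to 24871069) at rank 3102 and -59 bp, ranked 3123, 6292 and 1588, with replicate 2 outside the top calls. Of the best ranks of the 10 called genes, this one was the nearest to the end of the IDR list.

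CycB, the mitotic cyclin whose translation the PNG kinase promotes in the early embryo, was the nearest gene by TSS to a peak that stood far higher in rank than those at the other genes. This peak (2R, 22802803 to 22803130) had IDR rank 32, with 26, 41 and 30 in replicates 1, 2 and 3, so the replicates placed it closely. It is not at the CycB promoter. The summit lay 3334 bp downstream of the nearest CycB start, 552 bp beyond the 3′ end of CycB and 789 bp beyond the 3′ end of blw, an ATP synthase subunit gene, that is, between 2 converging genes. At the CycB start sites there was a pooled call of rank 15570 with ranks of 17941 and 11000 in replicates 1 and 2 and none in replicate 3.

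Cdk4, the partner kinase of cyclin D, had 3 IDR summits assigned to it as inside the gene or nearest to its TSS (2R), and none within 500 bp of its 5 start sites. A further summit, of rank 3372, lay beyond the 3′ end of the gene and was assigned to it by no rule. The summit of rank 1048, ranked 791, 2025 and 602, lay in an intron 3249 bp downstream of the nearest Cdk4 start, and the nearest TSS was that of the antisense RNA gene asRNA:CR44375. Rank 1818 belonged to a summit ranked 2670, 1552 and 2768 at -530 bp, just outside the window. The weakest, of rank 4081, ranked 9770, 3206 and 4883 and lay in an intron 954 bp downstream of a start. Only replicate 2 held that last call in its top 4187. CycA, a cyclin of replication and mitosis, CycD, the cyclin of growth and the first gap phase, and Cdk2, the partner of CycE, had pooled calls at a TSS of ranks 24035, 7192 and 7352. The pooled CycD summit lay at -412 bp, and the calls within 250 bp of it ranked 3335, 16762 and 7435 in replicates 1, 2 and 3. Within 500 bp of the TSS the best calls ranked 24813 in replicate 1 and 13633 in replicate 2. The replicate 1 call of rank 3335 thus lay outside that window, and CycD had no top call at its TSS in any replicate.

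Of the 5 Cdk regulators, fzr alone was called. This activator of the anaphase-promoting complex, which marks mitotic cyclins for destruction, had a peak (X, 4679798 to 4680187) at rank 2185, ranked 3383, 1733 and 4055, all in the top calls. The summit lay at -456 bp and within the 3′ UTR of the upstream phosphatase gene Pp2C1. The Cdc25 phosphatase gene stg, which triggers mitosis in the embryo after the maternal cycles, had a call at -17 bp that split the replicates. It ranked 2630 in replicate 1, 17043 in replicate 2 and 6735 in replicate 3, and 6288 in the pooled list. The cyclin E-Cdk2 inhibitor dap did the same at 34 bp, with ranks of 3182, 16729 and 3893 and a pooled rank of 6314. At both genes replicate 2 ranked the call far lower. When that replicate was left out, both genes were counted as called in a list made from the calls of the remaining replicates. Whether either call would then pass the IDR filter was not tested. At a TSS the germline Cdc25 gene twe had only replicate calls of ranks 13300 and 14396, in replicates 1 and 2. The Cdc20 gene fzy, the mitotic activator of the anaphase-promoting complex, had 1 call at its TSS, of rank 23535 in replicate 2.

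The E2F and Rb genes all had pooled calls at a TSS, and Dp alone an IDR summit there. Dp, the dimer partner of both E2F proteins, had 4 IDR summits within 500 bp of its 3 start sites (2R). Only 7 protein-coding genes had 4 or more such summits, and 1996 had at least 1. Of the 13968 protein-coding genes, 10269 had 1 start site, and a gene with several has more windows in which a summit counts. The Dp summit of rank 530 lay in an intron 415 bp downstream of the middle start and ranked 567, 491 and 598. Another, of rank 880, lay at -198 bp from that start and ranked 1875, 882 and 576. A further summit, of rank 2600, ranked 1748, 4032 and 2794 and lay at -57 bp of the first Dp start and at -38 bp of Fsn, the neighbouring F-box gene, in the 5′ UTR of Fsn. Rank 3976 belonged to a summit at -262 bp from the third start, which ranked 1931, 5843 and 7794. The strongest of the 4 was thus also the steadiest across replicates, and the weakest was in the top calls of replicate 1 alone.

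E2f1, the activating E2F factor, is a gene of 40568 bp with 2 IDR summits in its introns (3R), neither within 500 bp of a start. The summit of rank 1780 lay 4728 bp downstream of the nearest start and ranked 3353, 1730 and 1517. The other, of rank 2324, lay 2769 bp downstream and ranked 2182, 2556 and 3395. Both were in the top calls of all replicates. At the E2f1 start sites the best pooled call ranked 6219. The repressive factor gene E2f2 had a pooled call of rank 13895 and the Rb gene Rbf one of rank 24106, both without a call in replicate 3.

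**Figure D2:**
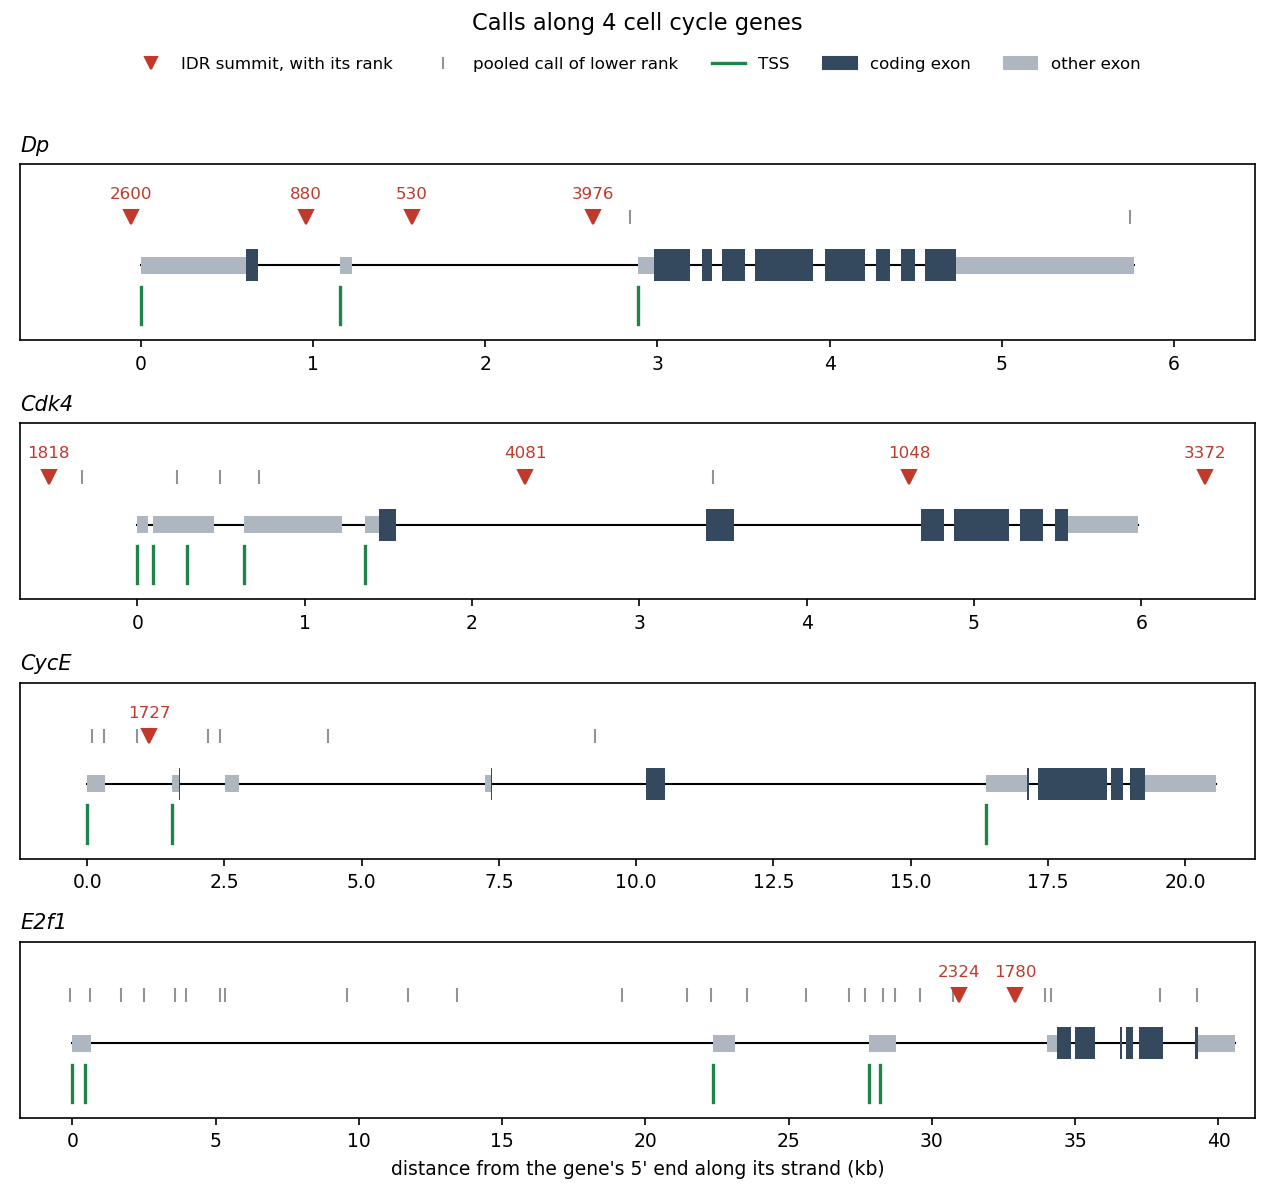
Calls along Dp, Cdk4, CycE and E2f1, with distance from the 5′ end of the gene along its strand on the x axis (kb), exons as boxes, TSS as green bars below, IDR summits as triangles with their ranks and lower pooled calls as grey ticks. The 4 Dp summits lie within 500 bp of its 3 start sites, none of them downstream of the third. The E2f1 summits of ranks 1780 and 2324 lie far inside the gene, and the Cdk4 panel also shows the unassigned summit of rank 3372.

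Of the 15 replication genes, 3 were called at a TSS (20.0%), against 14.3% of protein-coding genes. A pooled call of any rank stood there in 6 (40.0%), against 44.8%. RnrS, the small subunit of ribonucleotide reductase, which makes the DNA precursors, had a peak (2R, 11985512 to 11985664) at rank 1160 and -200 bp. It ranked 1140, 1421 and 1346, a narrow span, and lay at -415 bp from the divergent gene CG34231. The large subunit gene RnrL had no call at its TSS in any list. The helicase subunit gene dpa (Mcm4) had a peak (2R, 7499828 to 7500217) at rank 1969, ranked 2498, 2386 and 1530. Its summit lay in the 5′ UTR, 122 bp downstream of the dpa start and at -124 bp from didum, a myosin gene. Mcm2 had a peak (3R, 8264538 to 8264927) at rank 2086, ranked 3384, 2171 and 2335. The summit lay at -237 bp from Mcm2 and -282 bp from RPA1, which encodes the large subunit of the single-strand binding protein of replication, so the peak stood between the starts of 2 replication genes. The remaining helicase genes had little. Mcm3 and Mcm5 had no call at their TSS in any list, Mcm6 had calls of ranks 26818 and 15513 in replicates 1 and 3, and Mcm7 had 1 of rank 25372 in replicate 1. The origin recognition genes Orc1, Orc2, Orc5 and Orc6 had none at their TSS in any list. The licensing factor gene dup (Cdt1) stood just outside the IDR list at pooled rank 4370, with ranks of 5675, 6498 and 5981. Its inhibitor geminin had a pooled call of rank 26194, which no replicate matched, and the sliding clamp gene PCNA one of rank 22574.

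The 10 spindle and kinetochore genes had no IDR summit at a TSS or inside the gene, and 5 of the 10 had a pooled call at a TSS, against 44.8% of protein-coding genes. Bub3, a spindle checkpoint gene, came closest, at pooled rank 4350, -96 bp and ranks of 10657, 4594 and 4336. Incenp, a subunit of the chromosomal passenger complex, followed with a pooled rank of 6160 and ranks of 11807, 6353 and 7834. The mitotic kinase genes aurA, aurB and polo had pooled ranks of 8626, 9012 and 13347. The aurA and aurB calls were absent from replicate 1. The checkpoint kinase gene Bub1 and the kinetochore gene Cenp-C had no call at a TSS in any list. The centromeric histone gene cid had 1 call at its TSS, of rank 18573 in replicate 2. BubR1 had calls at its TSS in all 3 replicates, of ranks 10736, 7695 and 12870, but none there in the pooled list. The checkpoint gene mad2 was the nearest by TSS to a peak of rank 815, ranked 370, 975 and 1284, but the summit lay 11182 bp upstream, in an intron of vn, which encodes a ligand of the epidermal growth factor receptor. At its own start mad2 had only calls of ranks 26576 and 16666, in replicates 1 and 2.

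Among the 6 cyclins and kinases of transcription, CycT was called. CycT pairs with Cdk9 in the elongation factor P-TEFb. Its peak (3L, 17557403 to 17557792) ranked 1285, with ranks of 1198, 1076 and 1951, and its summit lay in the 5′ UTR, 190 bp downstream of the start. CycT was also the nearest by TSS to a peak of rank 885, ranked 1190, 817 and 1069, at -9216 bp within an intron of Eip74EF, an ecdysone-induced factor gene. Cdk9 itself had 1 call at its TSS, of rank 8941 in replicate 1. CycH, a partner of Cdk7 in the general factor TFIIH, had the pooled rank nearest to the end of the IDR list, 4318. Its ranks in the replicates were 6820, 4328 and 4455. Cdk7 had no call at its TSS in any list. CycC, the cyclin of the Mediator kinase module, and CycK, the partner of Cdk12, had pooled ranks of 24008 and 19930.

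In the PNG kinase complex, plu had a peak (2R, 20263927 to 20264101) at rank 834, ranked 473, 1353 and 579. The summit lay at -315 bp from the plu start, but 20 bp downstream of the start of RpS18, a ribosomal protein gene, and within its 5′ UTR. Counting each summit for its nearest TSS alone, plu was no longer called. The activating subunit gene gnu had an IDR summit of rank 988 in its 3′ UTR, 960 bp from its start and at -232 bp from NHP2, a gene of the small nucleolar ribonucleoprotein. It ranked 988 in replicate 2 and 989 in replicate 3, while replicate 1 had no call within 250 bp, the nearest lying 2370 bp away. The kinase gene png had no call at its TSS in any list.

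Among the summits of the 51 genes, those nearest to the end of the IDR list were the Cdk4 intron summit of rank 4081, with a signal of 162, and the Dp summit of rank 3976, with a signal of 165. Just outside the list stood CycH, Bub3 and dup, with signals of 157, 156 and 155, against 160 for the lowest IDR peak. A lower pooled call at a TSS was present in 21 of the 51 genes, with ranks between 4318 and 26194 and a median of 9012. With the 10 called genes, 31 of 51 (60.8%) had a pooled call of any rank, against 44.8% of protein-coding genes. In the replicate lists 33, 35 and 27 of the 51 genes (64.7%, 68.6% and 52.9%) had a call of any rank at a TSS in replicates 1, 2 and 3. The same shares over protein-coding genes were 47.8%, 47.5% and 42.9%. In all 4 of these lists 12 of the 51 genes had no call at a TSS (Mcm3, Mcm5, Orc1, Orc2, Orc5, Orc6, RnrL, Bub1, Cenp-C, Cdk7, gnu and png). They include 7 of the 15 replication genes, too few to set against the background. Among protein-coding genes 36.7% had none.

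**Figure D3:**
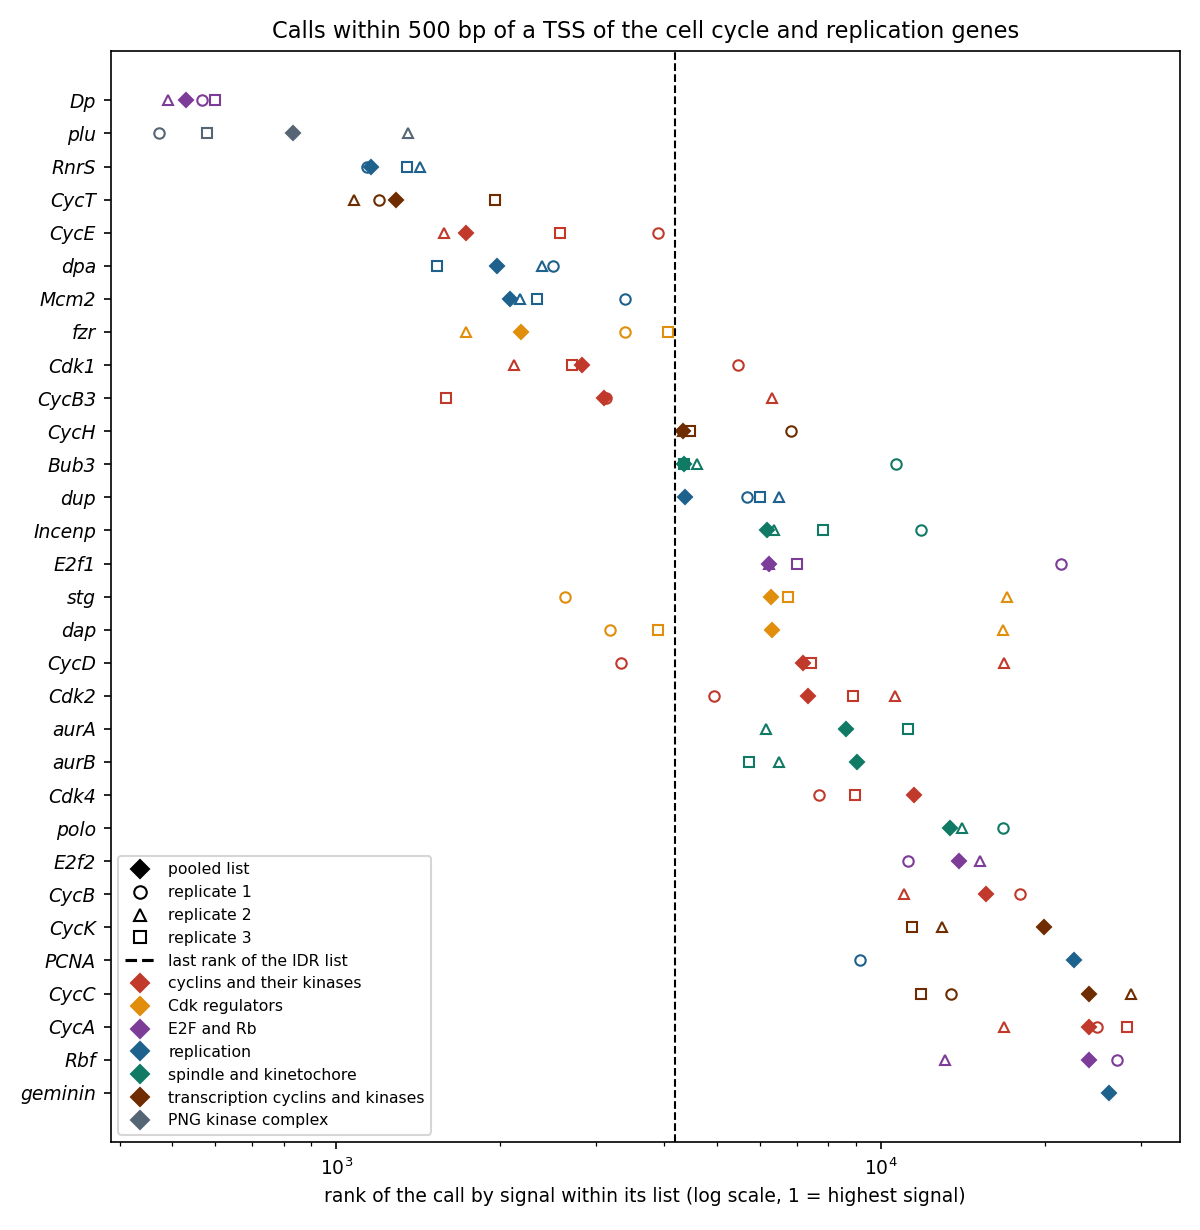
Rank by signal (x axis, log scale) of the call within 500 bp of a TSS for the 31 genes that have one in the pooled list, as filled diamonds, and of the same call within 250 bp in each replicate, as open symbols coloured by role. Left of the dashed line, at rank 4187, stand the 10 called genes, and the replicates of stg, dap and CycD stand widely apart, with replicate 2 at ranks 17043, 16729 and 16762.

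The replicates were compared through their 4187 highest calls. Such a call stood at a TSS in 11, 9 and 11 of the 51 genes in replicates 1, 2 and 3 (21.6%, 17.6% and 21.6%), against 14.6%, 14.0% and 14.4% of protein-coding genes. In all 3 replicates it did so in 8 genes (15.7%), against 9.04% of protein-coding genes. These 8 were CycE, fzr, Dp, Mcm2, dpa, RnrS, CycT and plu. The genes with a top call in 2 replicates were CycB3, Cdk1 and dap, and stg had one in 1. At the 13 IDR summits at a TSS of the 51 genes, the highest replicate rank was a median of 2.34 times the lowest, against 2.11 times over the 1744 of 1813 IDR summits at a TSS that had a call in every replicate. The shift between replicates 1 and 2 went with base composition. Across the 25 calls of these genes found in both, the log2 ratio of the rank in replicate 2 over that in replicate 1 had a Spearman correlation of -0.42 and a Pearson correlation of -0.42 with the A+T content around the summit. Across 4146 IDR peaks the same values were -0.51 and -0.49. The 25 include pooled calls below the IDR list, so the calls compared are not of the same kind. These describe calls that share libraries, and the part of base composition in the ranks was not tested.

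By the other assignment rules, an IDR summit lay inside the gene in 7 of the 51 genes (13.7%), against 11.9% of protein-coding genes. The TSS nearest to an IDR summit belonged to one of 13 of these genes (25.5%), against 17.3%. By any of the 3 rules 15 genes had a summit (29.4%), against 22.3%. The 5 genes beyond the 10 were CycB, Cdk4, E2f1, mad2 and gnu, and 22 distinct summits were involved. The median distance from a start site to the nearest IDR summit was 7729 bp in the 51 genes, against 9133 bp in protein-coding genes.

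Over all protein-coding genes, calls were more frequent where start sites were close or several. Another protein-coding gene's TSS lay within 500 bp in 20 of the 51 genes, and 4 of those 20 were called, against 23.5% of protein-coding genes with such a neighbour. Among the 31 without one, 6 were called, against 10.2%. More than 1 start site was annotated in 17 of the 51 genes, of which 5 were called, against 26.8% of such protein-coding genes. Of the 34 with 1 start site, 5 were called, against 9.79%. At 7 of the 13 distinct summits (53.8%) the TSS of a second gene lay within 500 bp as well, against 31.7% of all IDR summits at a TSS. Noncoding genes were included, as at the Dp summit of rank 530. The 13 were found through genes, which favours summits near more than 1 gene, while all IDR summits were counted once each. The genes are longer than most, with a median of 2792 bp, against 2164.5 bp.

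**Figure D4:**
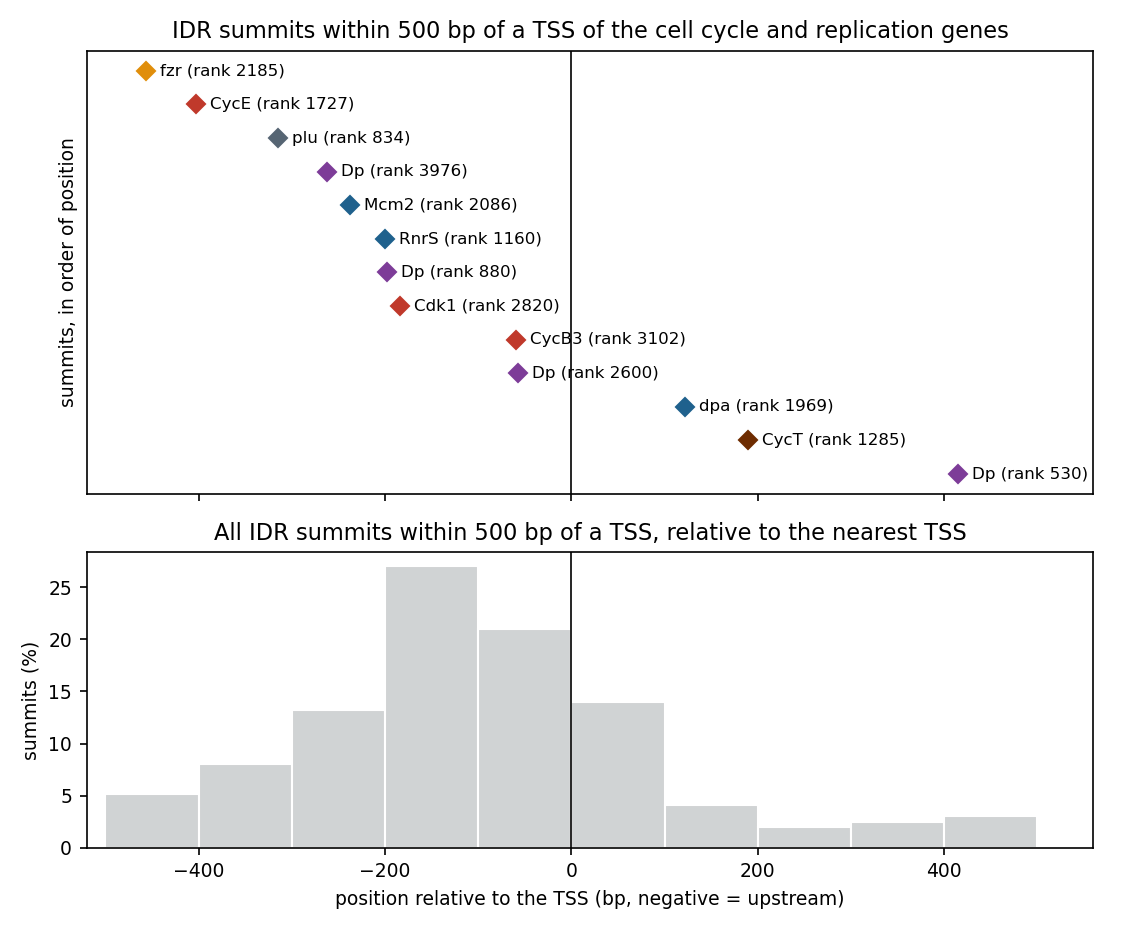
Position relative to the TSS (x axis, bp, negative upstream) of each IDR summit at a TSS of the 51 genes, top, with its rank, and of all 1813 IDR summits at a TSS in bins of 100 bp, bottom (y axis, % of summits). Upstream of the gene's own start lay 10 of the 13, spread between -456 and -57 bp, and 9 of the 13 lay upstream of the nearest TSS of any gene, against 74.3% of all IDR summits at a TSS, whose median position was -109 bp.

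Promoters of these genes, from 250 bp before to 50 bp after the start of the canonical transcript, were searched on both strands for the words of 5 factors known at fly promoters. The words were TATCGATA, the core of the DRE bound by DREF at growth and replication genes; TTTCCCGC, TTTCGCGC, TTTGCCGC and TTTGGCGC, for E2F; GGTCACAC, for M1BP; GAGAGAG, for GAGA factor; and CAGGTAG, for Zelda. No word contains another. The DRE word was present in 11 of the 51 promoters (21.6%), against 8.94% of 13967 protein-coding promoters, and an E2F word in 11 (21.6%), against 6.47%. The M1BP word was in 8 (15.7%), against 7.52%, the GAGA word in 3 (5.88%), against 6.19%, and the Zelda word in 0 of 51, against 1.72%. The E2F word was held by 9 of the 15 replication genes, namely Mcm2, Mcm3, Mcm5, Mcm6, Orc1, Orc5, Orc6, RnrL and RnrS, and by CycE and stg. The DRE word was held by CycA, Cdk2, PCNA, Orc2, Orc5, BubR1, Bub1, Bub3, mad2, CycT and Cdk9, 4 of them checkpoint genes.

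Holding these words did not separate called from uncalled genes. Of the 21 genes with a DRE or E2F word, 4 were called (19.0%: CycE, Mcm2, RnrS and CycT), and of the 30 with neither, 6 (20.0%). These 6 include dpa, which has an E2F word near its summit but outside the promoter searched. Over all protein-coding genes the shares called were 16.7% with either word and 13.9% with neither. In the 4 called genes with a DRE or E2F word in the promoter, the summit stood apart from the word. The E2F words of RnrS began at -54 and -37 bp, with the summit at -200 bp, and that of Mcm2 at 36 bp, with the summit at -237 bp. Those of CycE began at -114 and -91 bp from its canonical start. The DRE word of CycT began at -49 bp, with the summit at 190 bp. Within 100 bp of the 13 summits there was no DRE word, 1 E2F word, at dpa, and 1 M1BP word, at CycB3. Over all IDR summits at a TSS the shares with these words were 3.47%, 2.87% and 2.7%, and 13 windows are too few to set against them. In CycB3 the M1BP word, capitalised in the sequence above, lay within 10 bp of the summit. A match is only a run of letters, and no factor other than CG12219 was measured.

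**Figure D5:**
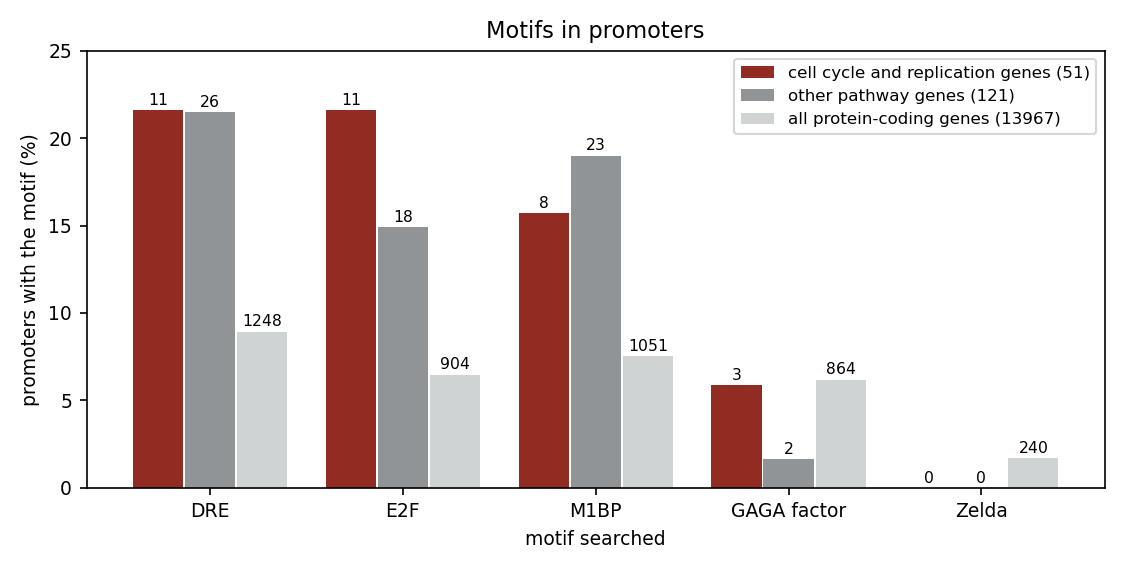
Share of promoters that hold each motif (y axis, %) among the 51 cell cycle and replication genes, 121 other genes of the pathway and 13967 protein-coding genes, with the number of promoters printed at each bar. The DRE and E2F words were each in 11 of the 51 promoters, the bars of all protein-coding genes stand at 8.94% and 6.47%, and no promoter of the 51 held the Zelda word.

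Other genes of the same pathways, 121 in all, were counted by the same rule, and 22 were called at a TSS (18.2%), a share close to both the 51 genes and the background. Called were 6 of 24 further cyclins, kinases and Cdk regulators, 1 of 15 genes of the anaphase-promoting complex and separase, 6 of 34 further replication genes, 4 of 15 cohesin and condensin genes, and 5 of 33 further kinetochore and spindle genes. The cohesin regulator gene pds5 had the highest signal, at rank 198, ranked 199, 306 and 120, with the summit at -164 bp and the TSS of Mppe nearer, at -114 bp. Next came Cdc16, a subunit of the anaphase-promoting complex, at rank 984, the topoisomerase gene Top1 at rank 1011, and the cohesin subunit gene SA1 at rank 1277. The Rb family gene Rbf2 stood at rank 1535 and -113 bp, with the TSS of CG32856 nearer, at 18 bp. SuUR, a gene of underreplication in polytene chromosomes, stood at rank 1788 and -97 bp, with the TSS of CG32075 nearer, at 47 bp. Cdk12 and the centriole kinase gene SAK shared a peak of rank 1758, which ranked 5818 in replicate 1 against 1536 and 1421 in replicates 2 and 3.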

How the data were processed

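Whole embryos of a line carrying CG12219-GFP, in 3 biological replicates, were profiled by ChIP-seq, in 1 group. Per the labels, chromatin was sonicated and the assembly is dm6. Calls of each replicate and of the pooled replicates were made against a control alignment, per the listing deposited beside the peak lists. Which aligner, peak caller and IDR cutoff were used is not given in the sources used here. Signal, as deposited for each peak, has no stated normalization and served only for ranking inside a list. Ties in signal were broken by the deposited −log10 q-value. The deposited offset from the interval's start gave the summit. The lists hold no read counts, so depth is unknown.

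Start sites came from Ensembl release 115 (BDGP 6.54) for 18277 genes on 7 chromosomes, and sequence from the RefSeq Release 6 genome, whose chromosome lengths cover all peaks and genes. The same call in another list was a summit within 250 bp. Promoter words were searched in 13967 genes. The genes, lists and motifs were chosen with earlier results of these data known, so no test was run over them, and counts stand beside those over all protein-coding genes. All genes with a summit or lower call were named, the 8 highest of the other pathway genes, and sequence was printed at the called summits on other arms than 2R and outside UTRs. Alternatives were other windows (250 and 1000 bp), nearest gene only, canonical transcripts, the 2093 highest-signal peaks, and leaving out each replicate. For the last, the list was made from the calls of the remaining replicates, without a new IDR filter. Gene assignment was tested on simulated data. Python 3.11.15, numpy 2.4.6, scipy 1.17.1, pandas 2.3.3 and matplotlib 3.10.9 were used.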

Additional observations from a re-analysis of the deposited data

How the results depend on the processing

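The genes called at a TSS numbered between 7 and 12 of 51 under all settings run, against 10. Protein-coding genes called numbered between 1095 (7.84%, 2093 highest-signal peaks) and 2420 (17.3%, window of 1000 bp). With windows of 250 and 1000 bp, 13.7% and 23.5% of the 51 genes were called, against 10.9% and 17.3% of protein-coding genes. Canonical transcripts alone gave 19.6%, against 12.0%, and the 2093 highest-signal peaks 13.7%, against 7.84%. With a window of 250 bp CycE, fzr and plu were lost, leaving 0 Cdk regulators and 0 PNG genes, and with 1000 bp Cdk4 and gnu were gained, giving 2 PNG genes. Counting the nearest gene only left 9 of the 51 genes (17.6%), 0 PNG genes and 11 of the 121 other pathway genes, against 10.7% of protein-coding genes. The 2093 highest-signal peaks left 1 cyclin or kinase, 0 Cdk regulators and 9 other pathway genes. The top calls of all 3 replicates left 1 cyclin or kinase, 13 other pathway genes and 1263 protein-coding genes (9.04%). Leaving out a replicate gave 10 to 12 of the 51 genes (19.6% to 23.5%), against 14.2% to 14.8% of protein-coding genes. In these settings a list from the calls of the remaining replicates stood in for the deposited IDR list. Whether the genes gained would pass the IDR filter was not tested. Without replicate 1 Bub3 and CycH were gained, and the spindle count ranged from 0 to 1 and that of transcription cyclins from 1 to 2. Without replicate 2 stg and dap were gained, and the count of Cdk regulators ranged from 1 to 3. Within 100 bp of the summits in place of the promoter, the DRE share was 0%, the E2F share 7.69% and the GAGA share 0%. These were taken over 13 windows in place of 51 promoters. Over all IDR summits at a TSS the same shares were 3.47%, 2.87% and 6.89%. With a call distance of 100 or 500 bp 59 ranks were identical, and 1 was lost, that of Mcm2 in replicate 1, whose call lay 147 bp away. The unknown depth limits every statement on genes without a call. No paired analysis was possible because there is 1 group.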
